A study of Mus musculus with 3 samples.

Results

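DNA methylation was compared between 1 library of mouse proximal colon organoids with activated Braf and 1 library of empty vector control organoids, both kept in full medium. These are 2 of the 3 libraries of the series and were chosen by their labels. The comparison covered 20661 protein-coding genes and 2462738 tiles of 1 kb on the 19 autosomes, and X and Y were not analysed here. The organoids were grown from crypts of the first 2.5 cm of the colon of male mice about 40 days old. All of them, the controls included, carried a heterozygous Braf V600E allele that stays silent until Cre recombinase acts on it (Braf+/LSL). In the activated organoids Cre was brought in by a lentivirus, and the control organoids (EV) received the lentiviral backbone without Cre. Both cultures were 5 months old and were then grown for 3 weeks in full medium, which holds Wnt3a, R-Spondin, Noggin and EGF. The third library, activated Braf with the last 3 weeks in Base medium, lacks those stem-cell niche factors. Its level is given beside others, with no comparison of its own, because it would share the EV library. The labels do not say how many mice or clones stand behind a culture.

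BRAF is a kinase of the RAS, RAF, MEK and ERK cascade, and the V600E form signals without an upstream cue. In human colon, activated BRAF is known from serrated tumours, many of which carry dense methylation of CpG islands, the CpG-rich stretches at the starts of many genes. Most such islands are free of methylation in normal cells, and islands of developmental genes that are held silent by Polycomb proteins are known to be prone to gain it in culture and in cancer. MBD-seq captures methylated DNA fragments with a methyl-CpG-binding domain and sequences them, so that it reads the amount of captured DNA and not the state of a single CpG. A library pools many cells, and dense methylation in few cells cannot be told apart from sparse methylation in many.

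Normalised coverage is given per 200-bp bin and averaged over a window of 1 kb to each side of a gene's start, with the library's own background subtracted. A gene was called gained or lost where the log2 ratio of Braf over EV, with a pseudocount of 0.0597 added to each, was at least 1 or at most -1 and the higher library reached a coverage of 0.119. Of the 20661 genes, 16456 had a listed transcription start. The other 4205 were read at both ends, called low and high by their coordinate, and the end with the larger change is given. Either end could give the call. The end given need not hold the start, and the other end need not share the call. With 1 library a side, calls rest on size alone, have no check by replicates and carry no p-value. Folds are ratios of coverage before subtraction, and their 95% intervals (exact Clopper-Pearson, on estimated reads) cover counting error only.

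Most starts that carry the main result are CpG-rich. Shown here from RefSeq (GRCm38.p6, the assembly of mm10), 5′ to 3′ on the gene's strand with each CpG in capitals, are the 250 bases before the start of 5 genes that gained coverage and 3 that lost it. Tmem150a and Nid1 are shown as leading gains, Hoxa6 as a developmental regulator, Sfrp2 as a Wnt antagonist, and Cdkn2a at its second start as a tumour suppressor. Ranbp17, Pop5 and Mpped2 are leading losses. The stretches lie at chr6:72355233-72355482 (Tmem150a, forward strand), chr13:13437352-13437601 (Nid1, forward), chr6:52208673-52208922 (Hoxa6, reverse), chr3:83766071-83766320 (Sfrp2, forward), chr4:89282193-89282442 (Cdkn2a, reverse), chr11:33513754-33514003 (Ranbp17, reverse), chr5:115235601-115235850 (Pop5, forward) and chr2:106692931-106693180 (Mpped2, forward).
Tmem150a: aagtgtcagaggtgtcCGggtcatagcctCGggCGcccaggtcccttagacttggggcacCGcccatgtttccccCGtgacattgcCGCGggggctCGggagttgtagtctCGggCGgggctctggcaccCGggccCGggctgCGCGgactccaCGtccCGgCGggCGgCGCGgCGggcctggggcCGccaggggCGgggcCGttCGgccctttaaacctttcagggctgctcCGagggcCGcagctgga
Nid1: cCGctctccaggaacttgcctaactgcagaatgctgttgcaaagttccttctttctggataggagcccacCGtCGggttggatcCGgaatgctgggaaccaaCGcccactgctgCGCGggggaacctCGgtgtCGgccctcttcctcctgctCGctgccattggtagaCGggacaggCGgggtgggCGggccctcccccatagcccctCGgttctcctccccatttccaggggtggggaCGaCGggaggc
Hoxa6: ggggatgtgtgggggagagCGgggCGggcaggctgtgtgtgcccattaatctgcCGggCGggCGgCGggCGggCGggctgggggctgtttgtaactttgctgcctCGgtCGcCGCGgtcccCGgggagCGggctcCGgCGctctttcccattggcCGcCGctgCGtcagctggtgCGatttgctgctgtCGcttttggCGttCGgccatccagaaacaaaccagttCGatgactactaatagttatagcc
Sfrp2: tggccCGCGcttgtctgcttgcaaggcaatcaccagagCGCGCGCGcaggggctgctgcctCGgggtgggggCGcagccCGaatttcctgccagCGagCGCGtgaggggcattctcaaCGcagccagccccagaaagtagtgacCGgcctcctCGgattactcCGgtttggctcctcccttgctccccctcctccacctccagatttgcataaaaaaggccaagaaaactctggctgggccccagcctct
Cdkn2a: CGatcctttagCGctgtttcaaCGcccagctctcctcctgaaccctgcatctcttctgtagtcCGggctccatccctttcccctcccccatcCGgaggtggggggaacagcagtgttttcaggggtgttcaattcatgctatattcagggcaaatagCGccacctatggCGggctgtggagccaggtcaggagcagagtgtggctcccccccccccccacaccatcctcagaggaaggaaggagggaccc
Ranbp17: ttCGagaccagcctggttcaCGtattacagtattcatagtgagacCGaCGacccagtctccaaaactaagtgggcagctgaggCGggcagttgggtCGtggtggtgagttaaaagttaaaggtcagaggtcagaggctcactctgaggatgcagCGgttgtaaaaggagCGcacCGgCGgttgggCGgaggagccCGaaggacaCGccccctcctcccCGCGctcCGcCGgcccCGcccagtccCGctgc
Pop5: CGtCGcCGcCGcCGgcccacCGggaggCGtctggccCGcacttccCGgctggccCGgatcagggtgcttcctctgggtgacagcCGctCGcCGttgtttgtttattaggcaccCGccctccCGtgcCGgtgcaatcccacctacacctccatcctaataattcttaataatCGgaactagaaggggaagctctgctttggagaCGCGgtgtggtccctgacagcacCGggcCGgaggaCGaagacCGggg
Mpped2: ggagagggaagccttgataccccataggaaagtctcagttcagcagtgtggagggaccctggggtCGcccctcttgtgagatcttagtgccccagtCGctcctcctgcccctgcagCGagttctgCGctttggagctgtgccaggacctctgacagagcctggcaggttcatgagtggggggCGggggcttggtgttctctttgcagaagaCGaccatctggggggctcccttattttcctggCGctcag
These stretches hold 27 CpGs (Tmem150a), 16 (Nid1), 24 (Hoxa6), 16 (Sfrp2), 7 (Cdkn2a), 19 (Ranbp17), 23 (Pop5) and 7 (Mpped2). Dense CpGs stand before starts that gained and before starts that lost. By the classes used here the second Cdkn2a start is intermediate and the Mpped2 start CpG-poor.

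The libraries differed in depth and in background. Reads overlapped bins 12530155 times in EV and 20914446 times in Braf full medium, an estimated 5041726 and 8648828 reads. The background, taken from bins with at most 3 overlaps, was 0.00576 in EV and 0.0410 in Braf full medium, 7.12-fold higher, and made up 11.3% and 49.3% of mean coverage. In Base medium it was 0.00605. After subtraction, mean coverage per bin was 0.0453 in EV and 0.0422 in Braf full medium. The background was subtracted for this reason. Its part in values that remain low after subtraction was not tested. Such values are common: the median log2 ratio over all genes was 0.18 and not 0, while without subtraction it was 0.74.

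Gains in gene windows outnumbered losses. Of 20661 genes, 943 (4.56%) gained coverage and 284 (1.37%) lost it, with a median log2 ratio of 1.88 among the gained and -1.48 among the lost. Among the listed starts, 717 of 16456 gained (4.36%) and 194 lost (1.18%). Among the 4205 genes read at both ends, 226 gained (5.37%) and 90 lost (2.14%). In EV 545 of the 717 gained starts (76.0%) lay below the minimum of 0.119, 96 of them without a single overlap, against 91.9% of starts not called. In Braf full medium 139 of the 194 lost starts (71.6%) lay below it, against 91.8% of starts not called. The call itself favours a low value in EV for gains and in Braf full medium for losses. The mean of the Braf Base medium library entered the pseudocount and the minimum, but its windows entered no call. It reached the minimum at 533 of the 717 gained starts (74.3%) and at 91 of the 194 lost starts (46.9%). Of the 15545 starts not called it reached the minimum at 1431 (9.21%). By the call itself each gained start was covered in Braf full medium and each lost start in EV, while most starts not called were bare. The contrast with starts not called therefore gives the calls no separate support. Most calls were not shared by the opposite end of the gene, where 57 of the 717 gained genes were gained as well. Of the 194 lost genes, 22 were lost there as well. Both shares were larger than those over all listed starts. By CpG class, 0.967% to 1.36% of all listed starts were gained at the opposite end and 0.882% to 1.15% were lost.

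Gains were least frequent at CpG-poor starts. Starts were classed by their 300-base RefSeq promoter as CpG-rich (observed over expected CpG of at least 0.6 and GC of at least 55%), CpG-poor (observed over expected below 0.4) or intermediate. CpG-rich starts gained at 395 of 7029 (5.62%) and lost at 62 (0.882%). Intermediate starts gained at 184 of 3193 (5.76%) and lost at 68 (2.13%). CpG-poor starts gained at 138 of 6234 (2.21%) and lost at 64 (1.03%). The share gained at CpG-rich starts exceeded that at CpG-poor starts under each of the 9 other settings, and not at the opposite end of the gene (0.967% against 1.36%). The median promoter held 18 CpGs in 300 bases among gained starts, 12.5 among lost starts and 14 among starts not called.

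**Figure D1:**
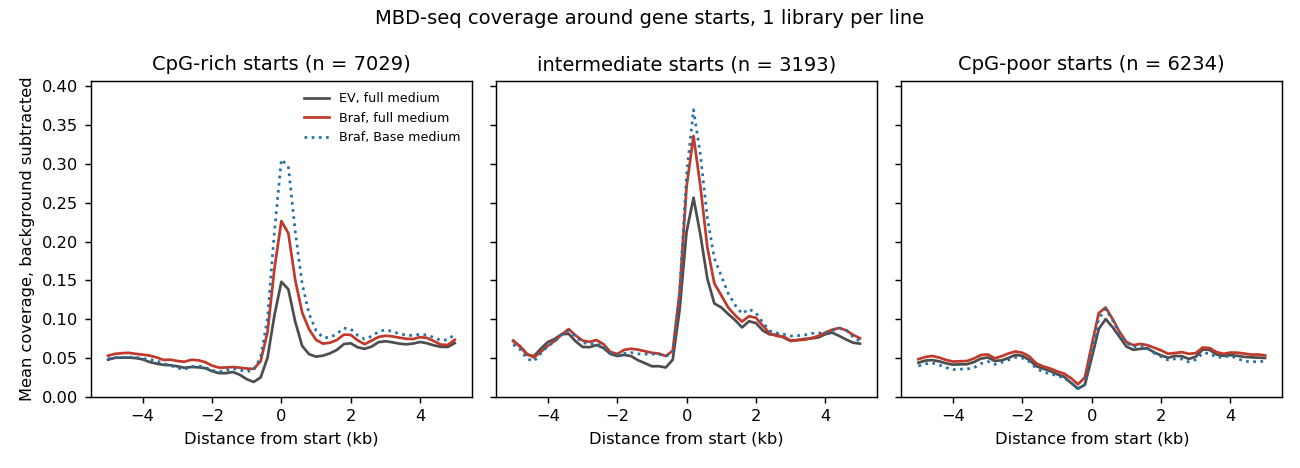
Mean MBD-seq coverage after background subtraction (vertical axis) by distance from the gene start in kb (horizontal axis), for 7029 CpG-rich, 3193 intermediate and 6234 CpG-poor starts, with 1 line per library. At CpG-rich starts the Braf full medium line peaks at 0.226 and the EV line at 0.148, and 5 kb into the gene they are at 0.0734 and 0.0692.

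The mean over starts uses no call, and in the bin that holds the start its ratio was highest at CpG-rich starts. At the bin that holds a CpG-rich start, mean coverage was 0.148 in EV and 0.226 in Braf full medium, with 0.306 in Base medium. The ratio of Braf full medium over EV was 1.53 there, 1.42 at 1 kb into the gene and 1.06 at 5 kb. The ratio was larger than 1.53 upstream, where coverage was low. At -800 bp from CpG-rich starts EV had 0.0191 and Braf full medium 0.0360, and at -200 bp from CpG-poor starts 0.0154 and 0.0248. At intermediate starts mean coverage was 0.213 in EV and 0.271 in Braf full medium (ratio 1.27), and at CpG-poor starts 0.0504 and 0.0670 (ratio 1.33).

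The largest gain was at Tmem150a, which encodes a transmembrane protein. Its window on chromosome 6 was without overlap in EV, while Braf full medium had 1.63 and Base medium 2.22, at least 49.2-fold higher than EV for Braf full medium against a floor of 3 reads. Such a bound leaves out counting error, and the interval for Tmem150a began at 39.4. Spata32, named for spermatogenesis, went from 0.0171 to 1.86 (83.2-fold, interval 22.8 to 696), with 1.81 in Base medium. B4galt2, a galactosyltransferase, went from 0.0444 to 2.44 (49.3-fold, 21.0 to 202) and had 1.69 in Base medium. At each of these starts both Braf libraries were high and EV was near its background. Ogfod2, an oxygenase family member, went from 0.0262 to 1.95 (62.2-fold, 19.6 to 285), with 2.43 in Base medium. Nid1 encodes the basement membrane protein nidogen and went from 0.0307 to 1.88 (52.7-fold, 19.08 to 277), with 1.87 in Base medium. Eid2, an inhibitor of differentiation, went from 0.0262 to 1.68, with 2.40 in Base medium.

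Other leading gains were shared less evenly between the Braf libraries. Slc22a21, a carnitine transporter gene, went from 0.0216 to 1.70 on chromosome 11 (high end), while the Base medium library had 0. Zfp37, a zinc finger gene, had no overlap in EV and a value of 1.09 in Braf full medium, with 0.243 in Base medium. Rasd1, a small GTPase gene, had no overlap in EV and 1.13 at its low end, with 0.432 in Base medium. Cdx1, a homeobox factor of the intestine, was without overlap in EV at its high end and had 1.26 in Braf full medium and 0.735 in Base medium, at least 38.4-fold higher in Braf full medium than in EV (interval from 30.7). The predicted gene Gm52351 lies 623 bp away and shares the Cdx1 window, so they count as 2 genes with 1 signal. Each of these gains was called under all 9 alternative settings applied to single genes.

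**Figure D2:**
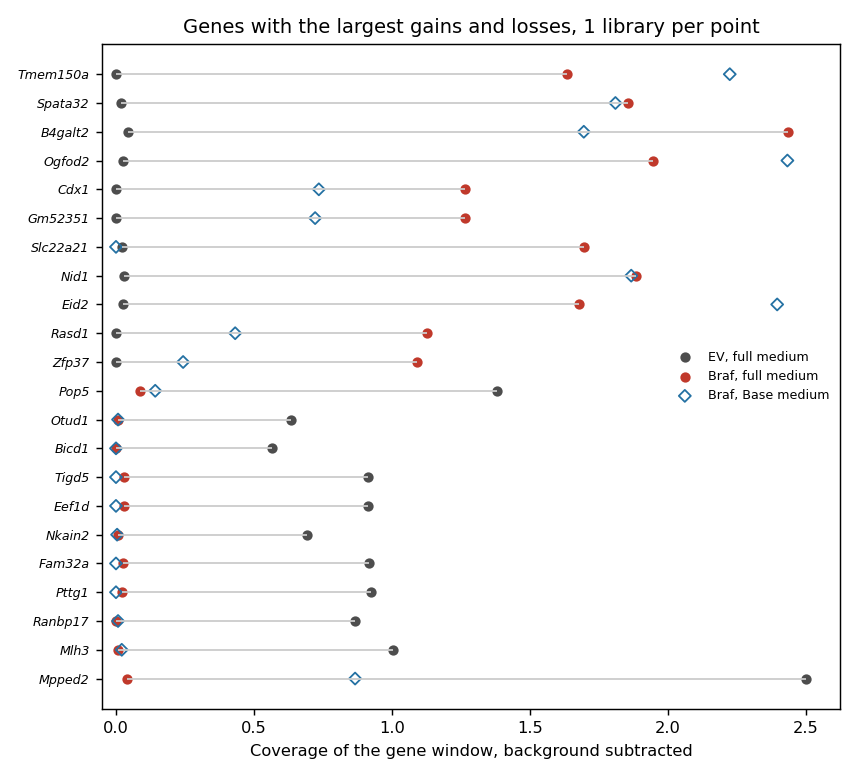
Coverage of the gene window after background subtraction (horizontal axis) for the genes with the largest gains and losses (vertical axis), with 1 library per point and a grey line joining EV to Braf full medium. Tmem150a lies at 0 in EV and 1.63 in Braf full medium, and Mpped2 at 2.50 and 0.0391; the Base medium library (open diamonds) lies at 0 at Slc22a21 and at 0.866 at Mpped2.

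The largest loss was at Mpped2, a metallophosphoesterase gene on chromosome 2. Coverage was 2.50 in EV and 0.0391 in Braf full medium, with 0.866 in Base medium (31.2-fold lower in Braf full medium than in EV, interval 15.9 to 83.6). Mlh3, a DNA mismatch repair gene, went from 1.003 to 0.00795 (20.6-fold lower, 7.74 to 59.1), with 0.0209 in Base medium. Ranbp17, a nuclear transport receptor gene, went from 0.866 to 0 after subtraction (21.7-fold lower before it, 7.60 to 76.3), with 0.00742 in Base medium. EV alone was covered at both Mlh3 and Ranbp17. Pttg1, which encodes securin, went from 0.925 to 0.0213, and Fam32a from 0.916 to 0.0258, and both were at 0 in Base medium. The high end of Eef1d, an elongation factor subunit gene, and the low end of Tigd5 lie 49 bp apart and went together from 0.911 to 0.0302, again with 0 in Base medium. The low end of Eef1d gained, from 0.145 to 0.493. Nkain2 went from 0.692 to 0.00795, Bicd1, a dynein adaptor gene, from 0.565 to 0, and Otud1, a deubiquitinase gene, from 0.633 to 0.00795. Pop5, an RNase P subunit gene, went from 1.38 to 0.0881 (10.7-fold lower, 5.91 to 21.3), with 0.142 in Base medium. Of these losses only that of Otud1 ended under an alternative, a window of 500 bp to each side.

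**Figure D3:**
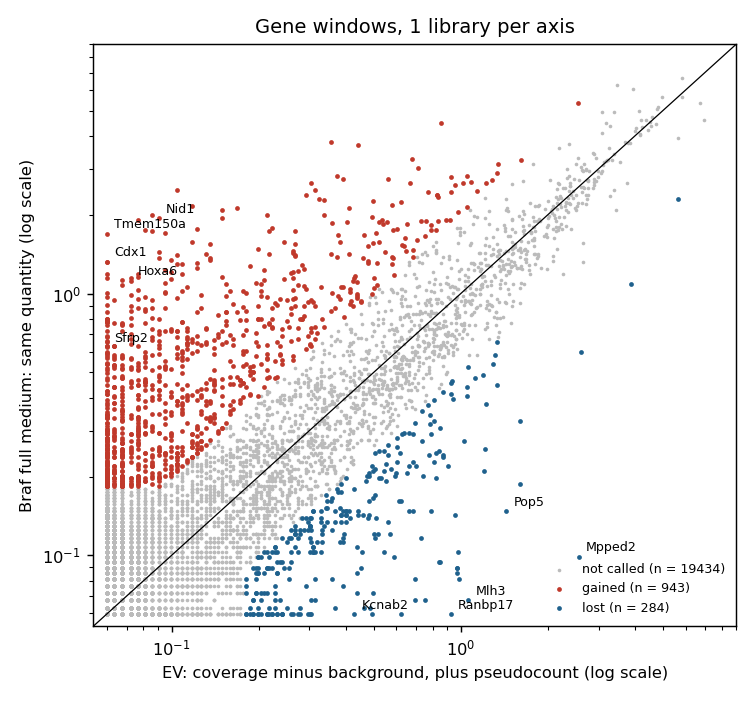
Coverage after background subtraction plus the pseudocount of 0.0597 in EV (horizontal, log scale) and in Braf full medium (vertical, log scale), with 1 point per gene for 20661 genes and a line of equal values. The 943 gained genes (red) crowd the left edge, where EV is near 0, and the 284 lost genes (blue) crowd the lower edge.

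Developmental regulators held a larger share of gained genes than the 4.56% of all genes. Transcription factors of development outside the homeobox families had 21 of 66 members gained (31.8%) and 0 lost, with a median log2 ratio of 0.80 against 0.18 over all genes. Hand1, a heart and neural crest regulator, went from 0.00336 to 0.885 at its low end, with 1.36 in Base medium (101.5-fold, interval 14.3 to 3263). The high end of Hand1 went from 0.0262 to 0.0659 and was not called. Hand2, its relative, went from 0.0125 to 0.609, with 0.940 in Base medium. Pax2, a kidney and optic factor, had no overlap in EV at its first start and a value of 0.6 in Braf full medium. Base medium had 0.496 there, and Braf full medium was at least 18.9-fold higher than EV (interval from 14.98). The later CpG-rich starts of Pax2, 9.15 and 10.3 kb from the first, had 0 and 0.0171 in EV and 0.0614 each in Braf full medium. These later starts were not called. Gata3, a factor of T cells and skin, went from 0.0353 to 0.819 (20.9-fold, 7.14 to 71.4), with 1.23 in Base medium, a call that ended with the window of 500 bp. At the called windows, for Hand1 the low end only and for Pax2 the first start only, all 4 were bare in EV and covered in both Braf libraries. Forkhead and T-box genes were among the rest: Foxe3 went from 0.0855 to 0.640, Foxf2 from 0 to 0.217, Foxc2 from 0.0490 to 0.373 and Tbx1 from 0.136 to 0.591. The calls of Foxf2, Foxc2 and Tbx1 ended with the window of 500 bp. Foxd3 and Foxe1 were covered in EV already, at 1.03 and 0.583, and reached 2.61 and 1.58.

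Homeobox genes showed gains and a few losses. Of 90 homeobox factors outside the Hox clusters, 18 gained (20.0%) and 3 lost (3.33%). Tlx2, a factor of neural crest and enteric neurons, went from 0.0353 to 1.17 at its low end (29.6-fold, interval 10.2 to 100.2), with 0.203 in Base medium. Emx2, a forebrain and urogenital factor, went from 0.0536 to 0.609, and Hmx1 from 0.204 to 1.37, with 4.25 in Base medium. Pitx1, a hindlimb factor, was lost instead, at the high end, from 0.638 to 0.0213, with 0.0108 in Base medium. Tlx1 (0.268 to 0.0748) and Irx1 (0.295 to 0.101) were the other losses, and both calls ended without background subtraction. Of 39 Hox genes, which set position along the body axis, 9 gained (23.1%) and 1 lost (2.56%). Hoxa6 went from 0.0125 to 1.06 (60.5-fold, 13.2 to 409), with 1.11 in Base medium. Hoxc11 had no overlap in EV and 0.538 in Braf full medium, with 0.122 in Base medium. Hoxd1 had 1 overlap in EV and 0.195 in Braf full medium, with 2.07 in Base medium. Hoxb5 was the loss, from 0.437 to 0.0124 at its low end, with 0 in Base medium. The calls of Hoxd1 and Emx2 ended under an alternative, those of Tlx2, Hmx1, Pitx1, Hoxa6, Hoxc11 and Hoxb5 under none of the 9.

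**Figure D4:**
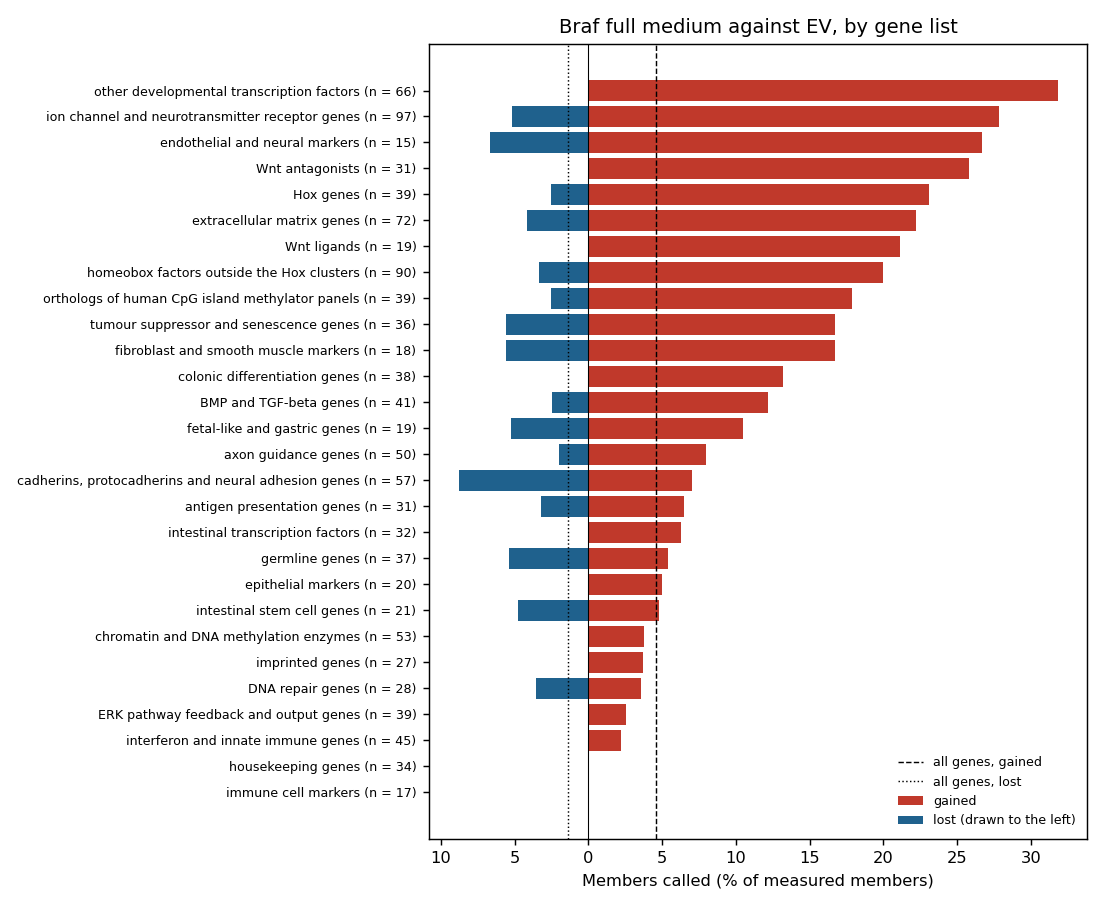
Share of measured members (horizontal axis, percent) that gained coverage, drawn to the right, or lost it, drawn to the left, for each of 28 gene lists (vertical axis), with dashed and dotted lines at the shares of all genes, 4.56% and 1.37%. Developmental transcription factors (31.8%), ion channel and neurotransmitter receptor genes (27.8%) and Wnt antagonists (25.8%) stand among the longest bars, and housekeeping genes and immune cell markers have none.

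Of 31 Wnt antagonists, genes whose products restrain the pathway that maintains crypt stem cells, 8 gained (25.8%) and 0 lost. Secreted frizzled-related proteins bind Wnt ligands outside the cell. Sfrp2 had no overlap in EV and a value of 0.565 in Braf full medium, with 1.01 in Base medium, at least 17.8-fold higher in Braf full medium than in EV (interval from 13.9). Sfrp1 went from 0.108 to 0.422 at its low end (4.06-fold, interval 2.02 to 9.11), with 1.01 in Base medium. Sfrp4, with 0.00336 in EV and 0.0258 in Braf full medium, was not called, and had 0.186 in Base medium. SoxF transcription factors can counter beta-catenin. Sox17 went from 0.00793 to 0.382 at its low end (30.9-fold, 6.27 to 1500), with 0.795 in Base medium. Sox18 went from 0.00336 to 0.346 and Sox7 from 0.131 to 0.444. Wnt5a, which is counted among antagonists and ligands, completed the list. Shisa3, which holds back Wnt and FGF receptors, went from 0.0536 to 0.578, with 0.573 in Base medium, and Notum, which inactivates Wnt by removing its lipid, from 0.200 to 0.823. The calls of Sfrp1, Sox7 and Wnt5a ended with a pseudocount 4 times as large, and that of Shisa3 with the window of 500 bp.

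Wnt ligands that gained did so at low coverage. Of 19 Wnt ligands 4 gained (21.1%) and 0 lost: Wnt5a from 0 to 0.173, Wnt16 from 0.0262 to 0.177, Wnt4 from 0.0262 to 0.164 and Wnt3, a ligand of the crypt niche, from 0.0171 to 0.137. None of the 4 was called with a pseudocount 4 times as large or a minimum of 5 times the mean. Of 41 BMP and TGF-beta genes 5 gained (12.2%) and 1 lost (2.44%). Chordin, encoded by Chrd and a BMP antagonist, went from 0.0353 to 0.493 (13.02-fold, interval 4.36 to 45.3), with 0.290 in Base medium. Thpo starts 1384 bp from Chrd and went from 0.336 to 0.752, so its window shares part of the signal. Bmp4 went from 0.236 to 0.872 (3.78-fold, 2.36 to 6.53), with 0.755 in Base medium. Gdf7 had no overlap in EV and 0.217 in Braf full medium, and Tgfbr3, a co-receptor gene, went from 0.00793 to 0.150, and both calls ended under alternatives. Of 39 ERK feedback and output genes, Dusp2, a phosphatase that switches ERK off, was the 1 gained (2.56%), from 0 to 0.150, and that call too ended under alternatives. Of genes that ERK is known to switch on, Dusp6 had 0 in both libraries, and Etv4 0.131 in EV and 0.101 in Braf full medium.

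Tumour suppressor and senescence genes had 6 of 36 members gained (16.7%) and 2 lost (5.56%). Rarb, a retinoic acid receptor gene, had no overlap in EV and a value of 0.480 in Braf full medium, with 0.0647 in Base medium, at least 15.3-fold higher in Braf full medium than in EV (interval from 11.9). Igfbp3 went from 0.0901 to 0.583 and Socs1, which restrains cytokine signalling, from 0.140 to 0.738, a call that ended with the window of 500 bp. Timp3, a metalloprotease inhibitor gene, and Dapk1, a death kinase gene, were covered in EV at 0.775 and 0.670 and reached 2.28 and 1.83. Rassf1 went from 0.273 to 0.0525 and Cdh13 from 0.241 to 0.0703, and both loss calls ended under alternatives. Igfbp7, a secreted factor tied to Braf-induced senescence, had 0.642 in EV and 1.09 in Braf full medium, with 1.78 in Base medium, and its log2 ratio of 0.71 was below a call. Orthologs of genes used to score the CpG island methylator phenotype in human tumours had 7 of 39 gained (17.9%) and 1 lost (2.56%). Beside Sfrp2, Sfrp1, Socs1, Timp3 and Cdkn2a they included Fbn2, a fibrillin gene (0.0901 to 0.658, with 3.84 in Base medium), and Vim (0.0262 to 0.253), whose call ended with the larger pseudocount. Penk was the loss (0.209 to 0.0480), a call that ended without background subtraction. The panel genes Runx3 (0 and 0.00795), Neurog1 (0.0992 and 0.0792) and Cacna1g (0.0946 and 0.0347) stayed below the minimum in EV and in Braf full medium. Of 28 DNA repair genes 1 gained and 1 was lost (3.57% each), against 4.56% gained and 1.37% lost over all genes. Mlh3 was the loss, and Fancf, of the Fanconi pathway, was the gain (0.391 to 0.877). The Fancf call ended with the larger pseudocount. Gas2 starts 252 bp from Fancf and gained with it.

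Cdkn2a encodes p19 from its first start and p16 from its second, which lies 12.4 kb downstream. At the first start coverage was 0.0672 in EV and 0.195 in Braf full medium, with 0.233 in Base medium, a log2 ratio of 1 that just met the threshold and ended under several alternatives. At the second start it was 0.140 in EV and 0.819 in Braf full medium, with 0.829 in Base medium, a log2 ratio of 2.14. The stretch printed for Cdkn2a is that of the second start. Of 2660 genes with several listed starts, 164 had a gained start, 46 of them at every start and 118 at only some, and 53 had a lost start. The start of Brd2, a bromodomain gene, that lies 2.71 kb from the first went from 0.0672 to 3.43, with 4.55 in Base medium, while the first was at 0 in all 3 libraries. Hoxd11 had 0.00793 in EV and 0 in Braf full medium at its first start, and went from 0.0216 to 1.81 at its second. Cldn10, a claudin gene, went from 0.0581 to 1.80 at its second start, 67.1 kb from the first. Pmp22, a myelin protein gene, gained at 3 later starts, whose windows overlap, and had 0.0436 in Braf full medium at its first. Starts of a gene that lie close together share reads and are not separate measurements. In 4 genes (Speg, Atp2b2, Ankrd6 and Dab2ip) a start was gained and another lost. Genes outside the rule for named genes in this paragraph were picked after their values were seen.

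Intestinal identity genes were mostly bare in both libraries, as were most genes: 2254 of 20661 were covered in EV and 2733 in Braf full medium. Intestinal transcription factors were covered at 3 and 4 of 32, colonic differentiation genes at 3 and 7 of 38. Of 20 epithelial markers none reached the minimum in EV, and Cdx1 alone was gained (5%, against 4.56% of all genes). Epcam (0.00793 in EV, 0 in Braf full medium) and Cdh1 (0 and 0.0302 at its low end), both adhesion genes of epithelium, were not called. Cdx2, the relative of Cdx1, had no overlap in EV and a value of 0.0480 in Braf full medium, with 0 in Base medium, all under the minimum. Of 32 intestinal transcription factors 2 gained (6.25%), Cdx1 and Gfi1, a factor of secretory cells (0.0307 to 0.235). The Gfi1 call ended under alternatives. Of 38 colonic differentiation genes 5 gained (13.2%) and 0 lost. Scnn1b and Scnn1g encode subunits of the epithelial sodium channel of the colon. Scnn1b went from 0.0307 to 0.738 (21.4-fold, interval 7.49 to 113), with 1.095 in Base medium, and Scnn1g from 0.0307 to 0.467, with 0.486 in Base medium. The enteroendocrine genes Sct, which encodes secretin, and Chga, which encodes chromogranin A, went from 0.117 to 0.828 and from 0.00793 to 0.280. Best2, a channel gene of goblet cells, went from 0.117 to 0.395. The calls of Chga and Best2 ended under alternatives.

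Of 21 intestinal stem cell genes 1 gained and 1 was lost (4.76% each), against 4.56% gained and 1.37% lost over all genes. Tert, the telomerase gene, gained (0 to 0.150) and Hopx, a marker of reserve stem cells, was lost (0.218 to 0). Neither reached the minimum of 5 times the mean. Lgr5 (0 and 0.0258) and Ascl2 (0 and 0.0258), markers of cycling crypt stem cells, were not called. Of 19 fetal-like and gastric genes 2 gained (10.5%) and 1 was lost (5.26%). The water channel gene Aqp5 went from 0.00336 to 0.525, with 1.25 in Base medium (62.0-fold, interval 8.65 to 2025). Sox2, a foregut factor, went from 0.127 to 0.431. The Sox2 call ended with the larger pseudocount. The Braf start itself had 0 in EV and 0.0258 in Braf full medium and was not called. Methylation at that start checks no label.

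Genes of neurons and of the matrix held many gains. Of 97 ion channel and neurotransmitter receptor genes, 27 gained (27.8%) and 5 lost (5.15%), with a median log2 ratio of 0.59. In EV 23 of the 97 were covered, that is, at or above the minimum, and in Braf full medium 41. Cacna1b, a calcium channel gene, went from 0.0490 to 1.24 (23.3-fold, interval 9.42 to 70.9), with 2.59 in Base medium. Grik3, a kainate receptor gene, went from 0.0262 to 0.890, with 2.91 in Base medium. The neuropeptide Y receptor genes Npy5r (0.0216 to 0.814), Npy1r (0.00793 to 0.458) and Npy2r (0 to 0.364) gained together. Npy1r and Npy5r are neighbours on chromosome 8. The largest losses of the list were Kcnab2 (0.368 to 0) and Cacna1a (0.898 to 0.0837). Of 50 axon guidance genes 4 gained (8%) and 1 lost (2%). Plxnc1, a semaphorin receptor gene, went from 0.0490 to 1.13, and the ephrin receptor genes Epha8 and Epha6 from 0 to 0.182 and from 0.0171 to 0.208. The calls of Epha8 and Epha6 ended with the larger pseudocount. Slit3 was the loss, from 0.378 to 0.0124, with 1.61 in Base medium.

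Of 57 cadherins and neural adhesion genes 5 were lost (8.77%) and 4 gained (7.02%). Without background subtraction 1 was lost and 6 gained, and with the larger pseudocount or the higher minimum 1 was lost and 3 gained. The loss calls of Cdh13, Cdh22, Cntn1 and Nrxn2 ended in those settings, and that of Pcdh8 did not. Pcdh9 had no overlap in EV and 0.596 in Braf full medium, and Mdga2 went from 0.0125 to 0.502, with 4.04 in Base medium. Pcdh1 went from 0.619 to 3.22 at its low end (5.22-fold, interval 3.92 to 7.11), with 4.14 in Base medium. At its high end it had 0.0125 in EV and 0.0124 in Braf full medium. Pcdh8 went from 2.55 to 0.538 (4.42-fold lower, 3.26 to 6.05), with 1.55 in Base medium. Of 72 extracellular matrix genes 16 gained (22.2%) and 3 lost (4.17%). Nid1 and Hspg2, which encodes perlecan, are components of basement membranes, and Hspg2 went from 0.0764 to 1.49, with 0.752 in Base medium. Acan, the aggrecan gene of cartilage, went from 0.0171 to 0.819 (37.7-fold, 10.2 to 319) but had 0.0714 in Base medium. Efemp1, an elastic fibre gene, had no overlap in EV and 0.462 in Braf full medium. Reln, the reelin gene, went from 0.332 to 2.68.

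Markers of other cell types were read beside these lists, since such genes could come from other cells in a culture. Of 17 immune markers none was covered in any library and none was called, though 1 gained with the window of 500 bp. Among 18 fibroblast and smooth muscle markers 3 gained (16.7%) and 1 lost (5.56%), and 4 were covered in EV and 5 in Braf full medium. Beside Vim, Twist1, a mesoderm factor, went from 0.0581 to 0.534, with 3.04 in Base medium. Tagln went from 0.245 to 0.569, while Col1a1 was lost, from 0.391 to 0.0302, with 0.000686 in Base medium. Among 15 endothelial and neural markers 4 gained (26.7%) and 1 lost (6.67%): Sox10 (0.0171 to 0.231), Kdr (0.00793 to 0.164) and Cldn5 (0.592 to 1.78) gained, as did Elavl3 (0.241 to 0.583), and Elavl4 was lost (0.241 to 0.0792). The calls of Sox10, Kdr, Cldn5, Elavl3, Elavl4 and Tagln each ended under an alternative, and the Elavl4 fold interval spans 1 (0.979 to 4.81 lower). Methylation of a marker gene does not measure its expression, and the part of other cells in these results was not tested.

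Germline and imprinted genes, known to carry methylation in somatic cells, were covered in both libraries. Of 37 germline genes, 30 were covered in EV and 30 in Braf full medium, 2 gained and 2 lost (5.41% each). Dmc1, a meiotic recombinase gene, went from 0.3 to 1.81, with 2.11 in Base medium, and Syce2, of the synaptonemal complex, from 0.181 to 0.676, with 0.0243 in Base medium. Piwil1 (0.624 to 0.168) and Hormad2 (0.875 to 0.404) were lost, and the Hormad2 call ended without background subtraction. Of 27 imprinted genes, 16 were covered in EV and 16 in Braf full medium. Grb10, a growth-restraining imprinted gene, went from 0.213 to 1.16, with 3.12 in Base medium, and was the 1 called (3.70%). Peg3 had 1.69 in EV and 1.66 in Braf full medium. Of 34 housekeeping genes none was called in either direction, with a median log2 ratio of 0.34. Without subtraction that median was 0.87 and 2 of them gained.

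Immune and chromatin genes stand against 4.56% gained and 1.37% lost over all genes. Of 45 interferon and innate immune genes 1 gained (2.22%), Nlrp6, an inflammasome gene of the colon epithelium, from 0 to 0.293, with 0.297 in Base medium, a call that ended with the minimum of 5 times the mean. Of 31 antigen presentation genes 2 gained (6.45%) and 1 lost (3.23%). H2-Q10 went from 0.921 to 1.99 (2.19-fold, interval 1.68 to 2.87) and H2-T3 from 0.0536 to 0.168, and both calls ended with the larger pseudocount. Cd74 was called lost at its high end (0.168 to 0.0480), but its fold interval spans 1. Without subtraction that end had 0.173 in EV and 0.0891 in Braf full medium, and the larger change was then a log2 ratio of 1.12 at the low end, which was not called. Of 53 chromatin and DNA methylation enzymes 2 gained (3.77%) and 0 lost. Tet3, an enzyme that oxidises methylcytosine, went from 0.00336 to 0.235, and Prdm16 from 0.0490 to 0.302, with 2.51 in Base medium. Both calls ended with the larger pseudocount. The methyltransferase genes Dnmt1 (0.0672 and 0.0213), Dnmt3a (0 and 0.0213) and Dnmt3b (0 and 0) were not called.

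Over 1-kb tiles the balance of gains and losses differed by place and by setting. Of 2462738 tiles, 18180 gained (0.738%) and 16115 lost (0.654%). Losses outnumbered gains with a minimum of 5 times the mean (7222 against 3590), with a smaller pseudocount (21168 against 20810) and with the background at the 95th percentile of blocks (17392 against 14293). Tiles near a CpG-rich start gained at 1082 of 22935 (4.72%) and lost at 249 (1.09%), and their mean coverage was 0.0809 in EV and 0.119 in Braf full medium, with 0.144 in Base medium. Near other starts 2.12% gained and 1.35% lost. Inside protein-coding genes losses outnumbered gains, 7962 (0.836%) against 6872 (0.721%) of 952613 tiles. Outside genes 7187 gained (0.585%) and 5798 lost (0.472%) of 1229493. The tiles inside genes and outside them hold most calls, yet only a small share of such tiles was called.

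**Figure D5:**
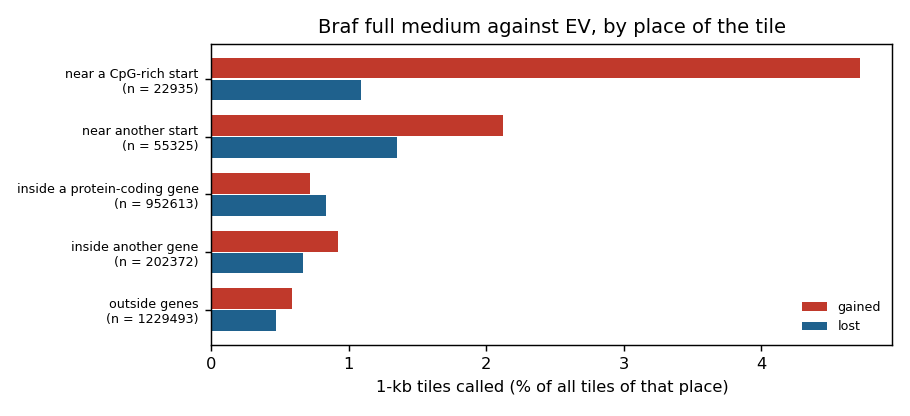
Share of 1-kb tiles (horizontal axis, percent) that gained (red) or lost (blue) coverage, by the place of the tile (vertical axis, with the number of tiles). Tiles near a CpG-rich start gained at 4.72%, and inside protein-coding genes the blue bar (0.836%) is the longer.

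Outside genes, the largest gains included a tile 8.398 kb from Bbc3, the Puma cell death gene, on chromosome 7 (0.0244 to 3.21, with 2.70 in Base medium). A tile 3.53 kb from Obi1 on chromosome 14 went from 0 to 2.09 but had 0.157 in Base medium. Further tiles lay 62.2 kb from Acan (0 to 1.76) and 18.5 kb from Igip (0.0244 to 2.33). The largest losses outside genes lay 68.4 kb from B3glct (2.15 to 0.0471), 21.0 kb from Actb (1.69 to 0.0569), 28.8 kb from Vmn1r65 (0.777 to 0), 10.7 kb from Rxra (1.43 to 0.0471) and 273 kb from Ajap1 on chromosome 4 (0.657 to 0). The tiles near Bbc3 and Igip were high in both Braf libraries.

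Most called tiles stood alone: 88.9% of the 15355 gained runs and 88.7% of the 14344 lost runs were a single tile. Runs of 5 or more gained tiles numbered 106 and held 1021 tiles, and the longest, of 57 tiles, covered Sp110 and Sp140 on chromosome 1 (mean coverage 0.0462 in EV and 0.465 in Braf full medium, with 0.0379 in Base medium). These long runs crowded in 3 places whose bounds were drawn after the data were seen. The 3 places were labelled as repeats when drawn, and their repeat content was not measured. The part of the raised background of the Braf full medium library in these runs was not tested. Between 84.9 and 85.7 Mb of chromosome 1, 434 of 800 tiles gained, between 20 and 21 Mb of chromosome 8, 373 of 1000, and between 3.1 and 3.2 Mb of chromosome 11, at Sfi1, 74 of 100. In the first of these, mean coverage was 0.112 in EV and 0.277 in Braf full medium, with 0.0728 in Base medium. In the second it was 0.0658, 0.172 and 0.0626, and in the third 1.31, 2.30 and 1.08. Without runs of 5 or more, 17159 tiles gained. The longest lost runs had 5 tiles and lay in Lrp1, Disp3, Clstn1 and Chd5, the last 3 of them on distal chromosome 4.

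Parts of chromosomes stood apart from the rest. Over the distal 11508 tiles of chromosome 4, the background of the Braf full medium library was 0.0284 to 0.0384 over 3 segments, against 0.0464 to 0.0544 in 8 segments elsewhere with a like EV background. Of the 171 genes there 14 were lost (8.19%) and 6 gained, and 746 of the tiles were lost (6.48%). Disp3 (0.432 to 0), Kcnab2 (0.368 to 0), Slc2a5, a fructose transporter gene (1.16 to 0.195), and Tnfrsf25 (1.28 to 0.387) were among the lost, and Gpr153 (0.0718 to 0.681) and Prdm16 among the gained. Without that region 937 genes gained and 270 lost, and 18000 tiles gained and 15369 lost. On chromosome 19, 21 of 705 genes gained (2.98%, the lowest share of the 19 chromosomes) and 17 lost (2.41%), and 1.62% of its tiles were lost, the highest share. Across the other 18 chromosomes that share was 0.473% to 1.07%. Over segments of 5 Mb of chromosome 19 the Braf background was 3.76 to 8.20 times that of EV, against 7.12 over the genome. Copy number was not analysed here. The part of the lower background of the Braf library on distal chromosome 4 in the losses there was not tested.

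Outside the protein-coding genes, 919 microRNA hairpins were read in the same way, with the window centred on the hairpin. MicroRNAs are short RNAs that repress messages matching their seed, bases 2 to 8. Of the hairpins 16 gained coverage (1.74%) and 24 lost it (2.61%). Mir9-2, a brain microRNA gene, went from 0.0125 in EV to 0.538 in Braf full medium, with 0.311 in Base medium, and Mir9-3, another copy with the same mature sequence, from 0.0855 to 0.623, with 1.11 in Base medium. Mir9-1, the remaining copy, had 0.00793 and 0.0391 and was not called. Mir137, also known from neurons, went from 0.00336 to 0.302. Mir34b and Mir34c, which p53 is known to induce, lie next to each other, share part of their windows, and went from 0.163 to 0.721 and from 0.149 to 0.681. Their relative Mir34a was below the minimum (0.0901 and 0.00349). Mir196b, within the Hoxa cluster, went from 0.0672 to 0.801, with 0.792 in Base medium, and Mir92b from 0.0718 to 0.667, with 0.923 in Base medium. The mature forms are shown from RefSeq with the seed in capitals, to let the shared seeds be seen.
miR-9-5p: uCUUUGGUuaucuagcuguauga
miR-137-3p: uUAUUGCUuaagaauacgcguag
miR-34b-5p: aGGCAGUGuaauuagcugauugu
miR-34b-3p: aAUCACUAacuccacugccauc
miR-34c-3p: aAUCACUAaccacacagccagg
miR-92b-3p: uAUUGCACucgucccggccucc
miR-196b-5p: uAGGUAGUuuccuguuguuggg
miR-34b-3p and miR-34c-3p share their seed, and the others differ.

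The lost hairpins included Mir802 (0.200 to 0), Mir330 (0.241 to 0.0302) and Mir129-2 (0.241 to 0.0748), calls that ended with the larger pseudocount, and 7 of 57 hairpins of a cluster at chr12:109563692-109747960. All 7 of those calls ended with the larger pseudocount, and 6 without background subtraction. That cluster belongs to the imprinted Dlk1-Meg3 domain. Its median coverage was 0.0764 in EV and 0.0748 in Braf full medium, with 0.0445 in Base medium, and none of its hairpins gained. Neighbouring hairpins share reads and are not separate measurements. Of 11311 starts of long non-coding RNAs, 227 gained (2.01%) and 154 lost (1.36%).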

How the data were processed

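The authors deposited log2 values of MBD-seq coverage per 200-bp bin for 3 libraries, 1 column each, on mm10; the submitters' processing notes name Bowtie2 and mm10, and the sources used here do not say how the values were normalised. DNA had been sheared to 200 to 400 bp and sequenced as 50-bp single reads, per the labels' protocols. In each library 2 to the power of the deposited log2 value was 0.0153 plus a whole multiple of the library's step, in 100% of bins within 0.001 of a step. Each multiple was read as the overlaps of reads with the bin, and coverage is overlaps times the step. The steps, 0.0502 in EV and, with Braf, 0.0490 in full and 0.0370 in Base medium, are proportional neither to overlaps nor to reads, so the scaling between libraries is not known. The background was the median over 100-kb blocks of the mean coverage of bins with at most 3 overlaps. It was subtracted from each window and values below 0 were set to 0. The pseudocount of 0.0597 is the 3 libraries' mean coverage of a bin, and the minimum of 0.119 is 2 times it. Estimated reads rest on 2.49 overlaps per read in EV and 2.42 in Braf full medium, from isolated reads. An "at least" fold sets 3 reads in place of 0. Starts came from RefSeq promoters of GRCm38.p6, taking the most upstream start. A tile is 5 bins.

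Named genes were the 10 that gained most, the 10 that lost most, from each of 28 lists at most 4 that were called, and always Cdx1, Cdx2, Sox17, Sfrp1, Sfrp2, Sfrp4, Cdkn2a, Igfbp7, Braf, Epcam and Cdh1. Genes with overlapping windows were named together. Of tiles outside genes the 5 largest gains and 5 largest losses were named. Of 1087 listed genes 1064 matched, 7 of them by a synonym. Some results that this rule names are not reported here. A gene outside this rule that is named was chosen after its values were seen. The comparison, the lists and the rules were chosen with earlier results of these data known. The calls were run on simulated data in which changes were put only into windows well covered in EV. That run does not check the recovery of gains from windows below the minimum in EV, where most gained starts lay. Python 3.11.15, numpy 2.4.6, pandas 2.3.3 and scipy 1.17.1 were used. No test across replicates was possible. Alternatives were no background or that of each block, equal totals, a smaller and a larger pseudocount, a higher minimum, the Braf library thinned, a narrower window and the other end of the gene.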

Additional observations from a re-analysis of the deposited data

How the results depend on the processing

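Counts of genes gained and lost in the main analysis were 943 and 284. Without background subtraction they were 1512 and 169, with a pseudocount 4 times as large 485 and 78, with a minimum of 5 times the mean 571 and 152, and at the other end of the gene 415 gained. Tiles gained were 69393, 3072 and 3590 under the first 3 of these settings and 34066 with the Braf library thinned to the EV total, against 18180; tiles lost were 8726, 2970 and 7222, against 16115. Tile losses outnumbered gains in 3 settings: the higher minimum, the smaller pseudocount and the background at the 95th percentile. CpG-rich starts gained were 213, 246 and 68 with the larger pseudocount, the higher minimum and the other end, against 395. Gains made up 76.9% of gene calls, 89.9% without subtraction, 86.1% with the larger pseudocount and 61.8% at the other end. A larger share of members than of all genes gained in 21 of 28 lists, and in 16 to 21 of them under the alternatives. The value for Cd74 went from -1.08 to 1.12 without subtraction because its other end then had the larger change, the 1 change of sign among 840 values of 105 named genes. Of the 99 named genes called, 61 kept their call in all 9 alternatives applied to single genes, which leave out the other end of the gene. The background at the 95th percentile of blocks, the regions left out and the long runs left out were alternatives chosen after seeing the data. The cause of these shifts was not tested. No paired analysis was possible because each group holds 1 library. Depth limits low windows: 3 reads in a window that is empty in EV stand for a coverage of 0.0340.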
